A study of Homo sapiens with 9 samples.

Results

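The genes described here encode the machinery that carries a signal from a Gq-coupled receptor to protein kinases and to the calcium store. They are 44 genes given by symbol: alpha subunits of the Gq and G12 families, phospholipases C, protein kinases C and D, diacylglycerol kinases, inositol trisphosphate (IP3) receptors, calmodulins, calmodulin-dependent kinases, the proteins of store-operated calcium entry and calcium pumps. The symbols were matched to the annotation of the array, and each gene was read from its brightest probe set that carries a single gene symbol. Of the 44 genes, 42 were measured among 19775 genes in all, and CALM2 and CALM3, which encode calmodulin, were not analysed here. The genes were chosen by name and not by their values, although earlier results of these data were known when they were chosen.

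The study asked whether inhibitors of cholesteryl ester transfer protein, drugs that raise HDL cholesterol, activate the renin-angiotensin-aldosterone pathway in adrenal cells. H295R is an established human adrenocortical carcinoma line that makes aldosterone and cortisol. Cells were given DMSO as vehicle, angiotensin II at 100 nM, or torcetrapib, which the sample labels call CP-529414, at 100 nM. All were harvested at 3 hr, and total RNA was hybridised to 9 single-colour arrays, 3 per group. No group carried a genetic change or a second agent, and the line stands for adrenal cortex only as a tumour-derived culture. Nothing in the labels ties the 3 arrays of a group to separate cultures. The p-values therefore measure only the spread of these arrays, and that may be technical.

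Angiotensin II binds its type 1 receptor, AGTR1, whose Gq and G11 partners switch on phospholipase C beta. The phospholipase splits a membrane phosphoinositide into diacylglycerol, which recruits protein kinases C and D, and IP3, which opens calcium channels in the endoplasmic reticulum. In adrenal cells that make aldosterone, the calcium released, together with calcium that enters across the plasma membrane, acts through calmodulin-dependent kinases on steroid synthesis. All of these steps are changes in protein activity and ion movement, and arrays measure only the mRNA of the proteins that carry them out.

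Promoters of some of these genes are shown, and whether their letters bear on the mRNA response was not tested. Sequences are RefSeq's for GRCh38.p14, 250 bases upstream of a listed start, 5′ to 3′ on the strand of the gene. Each promoter was searched on both strands for the cyclic AMP response element (CRE, TGACGTCA), its short form TGACG, the AP-1 site TGANTCA and the NR4A element AAAGGTCA. Every full CRE holds the short form as well. GNA13 and PRKD3, whose mRNA fell with angiotensin II, had none of these in the first listed promoter, at chr17:65056741-65056990 on the minus strand and chr2:37324834-37325083 on the minus strand. ATP2A2, whose mRNA rose, had the short form at 2 places, in capitals and read as CGTCA on this strand, at chr12:110280366-110280615 on the plus strand. That rise was 1.10-fold (adjusted p = 0.0418 in limma's test) and was lost when any array of the groups compared was left out. PRKCZ was the only one of the 35 members with a listed promoter to hold a full CRE, at chr1:2073414-2073663 on the plus strand, where capitals mark the CRE and a short form beside it.
GNA13: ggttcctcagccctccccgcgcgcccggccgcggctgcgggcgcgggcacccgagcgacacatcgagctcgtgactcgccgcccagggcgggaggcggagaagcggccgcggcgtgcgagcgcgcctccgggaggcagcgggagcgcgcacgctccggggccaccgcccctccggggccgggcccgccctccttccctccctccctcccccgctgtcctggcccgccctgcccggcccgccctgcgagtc
PRKD3: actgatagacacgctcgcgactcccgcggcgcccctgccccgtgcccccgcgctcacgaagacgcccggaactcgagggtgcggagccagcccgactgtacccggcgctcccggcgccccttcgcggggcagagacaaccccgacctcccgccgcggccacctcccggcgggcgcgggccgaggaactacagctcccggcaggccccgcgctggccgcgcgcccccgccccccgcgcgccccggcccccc
ATP2A2: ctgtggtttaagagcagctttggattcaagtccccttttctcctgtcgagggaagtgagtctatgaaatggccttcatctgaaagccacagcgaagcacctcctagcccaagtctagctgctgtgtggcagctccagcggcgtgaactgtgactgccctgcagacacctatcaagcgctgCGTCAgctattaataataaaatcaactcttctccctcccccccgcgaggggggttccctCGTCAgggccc
PRKCZ: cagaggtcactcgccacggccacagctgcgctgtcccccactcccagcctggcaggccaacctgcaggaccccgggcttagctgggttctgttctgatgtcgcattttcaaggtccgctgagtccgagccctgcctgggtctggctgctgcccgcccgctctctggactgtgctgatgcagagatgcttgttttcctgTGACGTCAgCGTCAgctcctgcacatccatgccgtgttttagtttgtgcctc

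Of the 42 measured genes, 35 had a promoter in the table, 60 promoters in all, and ORAI1, PLCD1, ITPR2, GNAQ, PLCB1, PLCB4 and PLCB2 had none there. The short form lay upstream of 5 of the 35 genes (ATP2A2, DGKA, ORAI2, PRKCZ and PRKD2). It was in 8 of their 60 promoters, and 21.2% of all 35116 promoters of the same length hold it. The full CRE is held by 1 of the 60 and by 1.65% of all promoters. The AP-1 site lay upstream of CAMK4 and GNA12, in 2 of the 60 promoters, and 6.57% of all promoters hold it. The NR4A element was in 0 of the 60 promoters of the 35 genes, and 1.05% of all promoters hold it. PRKCZ, with its full CRE, had a log2 change of 0.01 with angiotensin II (SE 0.08). These matches describe letters in a window and not binding.

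Values are on a log2 scale, so a difference of 1 is a doubling, and the median gene lay at 6.73. Measured members ranged from PRKD3, a protein kinase D with a mean of 12.8 in DMSO, to PLCB4, a phospholipase C beta with a mean of 3.25. Levels of different genes are not comparable on an array, since each probe set has its own brightness. PLCB4, PRKCB and CAMK4 lay among the dimmest 25% of genes, under 4.87. Array medians ran from 5.54 to 5.60. All 10 of the measured adrenocortical markers lay above that limit, and their mean per array was 9.55 to 9.64 in DMSO, 9.71 to 9.83 with angiotensin II and 9.58 to 9.65 with torcetrapib. Of the adrenal medulla markers, 3 of 8 lay under it, among them TH, the first enzyme of catecholamine synthesis, and the rest lay above it. The mean of those 8 was 5.49 to 5.59 in DMSO, 5.51 to 5.60 with angiotensin II and 5.49 to 5.59 with torcetrapib. Of the fibroblast, endothelial and immune markers, 4 of 12 lay under the limit, PTPRC, KDR, CDH5 and PDGFRB. The mean of those 12 was 5.003 to 5.08 in DMSO, 5.04 to 5.22 with angiotensin II and 5.005 to 5.04 with torcetrapib. Of these 12, COL3A1, a collagen of fibroblasts, was the single call, lower with torcetrapib than with angiotensin II (-0.36, adjusted p = 0.0268) but -0.13 averaged over its probe sets (0.220). That call was lost without angiotensin II replicate 1 or torcetrapib replicate 1 or 3 (adjusted p 0.0955 to 0.128). Of all genes, 6.68% were called in that direction. The part of other cells in the results was not tested. In such bulk RNA, fewer cells of a type and less RNA per cell cannot be told apart. The control probe sets for ACTB and GAPDH gave a 5′ to 3′ index, the log2 signal near the 5′ end minus that near the 3′ end, which follows how far the RNA or its copy reaches the 5′ end. It was -0.72, -0.28 and -0.50 in the DMSO arrays, -0.63 to -0.60 with angiotensin II and -0.28 to -0.22 with torcetrapib, so the arrays of the 2 treatments do not overlap in it and DMSO replicate 2 lies beside the torcetrapib arrays. Its SD was 0.22 in DMSO, 0.02 with angiotensin II and 0.03 with torcetrapib. A fit that includes the index therefore rests mostly on the 3 DMSO arrays for its correction. Such a fit cannot fully separate index from treatment.

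Read from the brightest probe set of each gene, few of these genes moved at the mRNA level, and none reached a 1.5-fold difference between groups. Other probe sets of some genes did, and are described after the roles. After angiotensin II, GNA13, PRKD3 and ITPR2 fell and ATP2A2 rose, each by less than 1.5-fold. After torcetrapib, GNAQ fell. Between the treatments, GNA11, PRKCI, DGKD, DGKZ and ATP2A2 were lower with torcetrapib and ITPR2 was higher. These calls have an adjusted p of at most 0.05 in limma's moderated test, adjusted by Benjamini-Hochberg over all 19775 genes. For each comparison, arrays were left out singly and only from the groups compared. The arrays of the remaining group always stayed in the fit, and statements on the loss of any array refer to the groups compared.

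Against DMSO, 4 of 42 measured members passed with angiotensin II (1 higher, 3 lower), beside 6.12% of all genes (3.36% higher, 2.76% lower). With torcetrapib 1 of 42 passed, a lower one, beside 1.16% (0.592% higher, 0.566% lower). In torcetrapib minus angiotensin II 6 of 42 passed (1 higher, 5 lower), beside 11.3% (4.61% higher, 6.68% lower). The torcetrapib count was 5 without DMSO replicate 2 and 0 without any other single array, and the count between treatments was 1 without torcetrapib replicate 3, 2 without angiotensin II replicate 1 and 3 without torcetrapib replicate 1. As shares of the members these are 9.52%, 2.38% and 14.3%, near the background in each comparison. Of all genes, 338, 60 and 355 had a difference of at least 1.5-fold, and 0 members did. The 95% interval of the change lay within 1.5-fold either way for 41, 41 and 42 members. PRKCH, a protein kinase C, was the exception in both comparisons with DMSO, where its interval reached 0.62. The tighter 1.25-fold limits held the interval of 33, 32 and 31 members, or 78.6%, 76.2% and 73.8%, where all genes gave 69.8%, 71.1% and 60.4%. The median log2 change of the members was 0.02, -0.08 and -0.08, and that of all genes 0.01, -0.03 and -0.04. The comparisons share arrays: both treatments are set against the same 3 DMSO arrays.

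**Figure D1:**
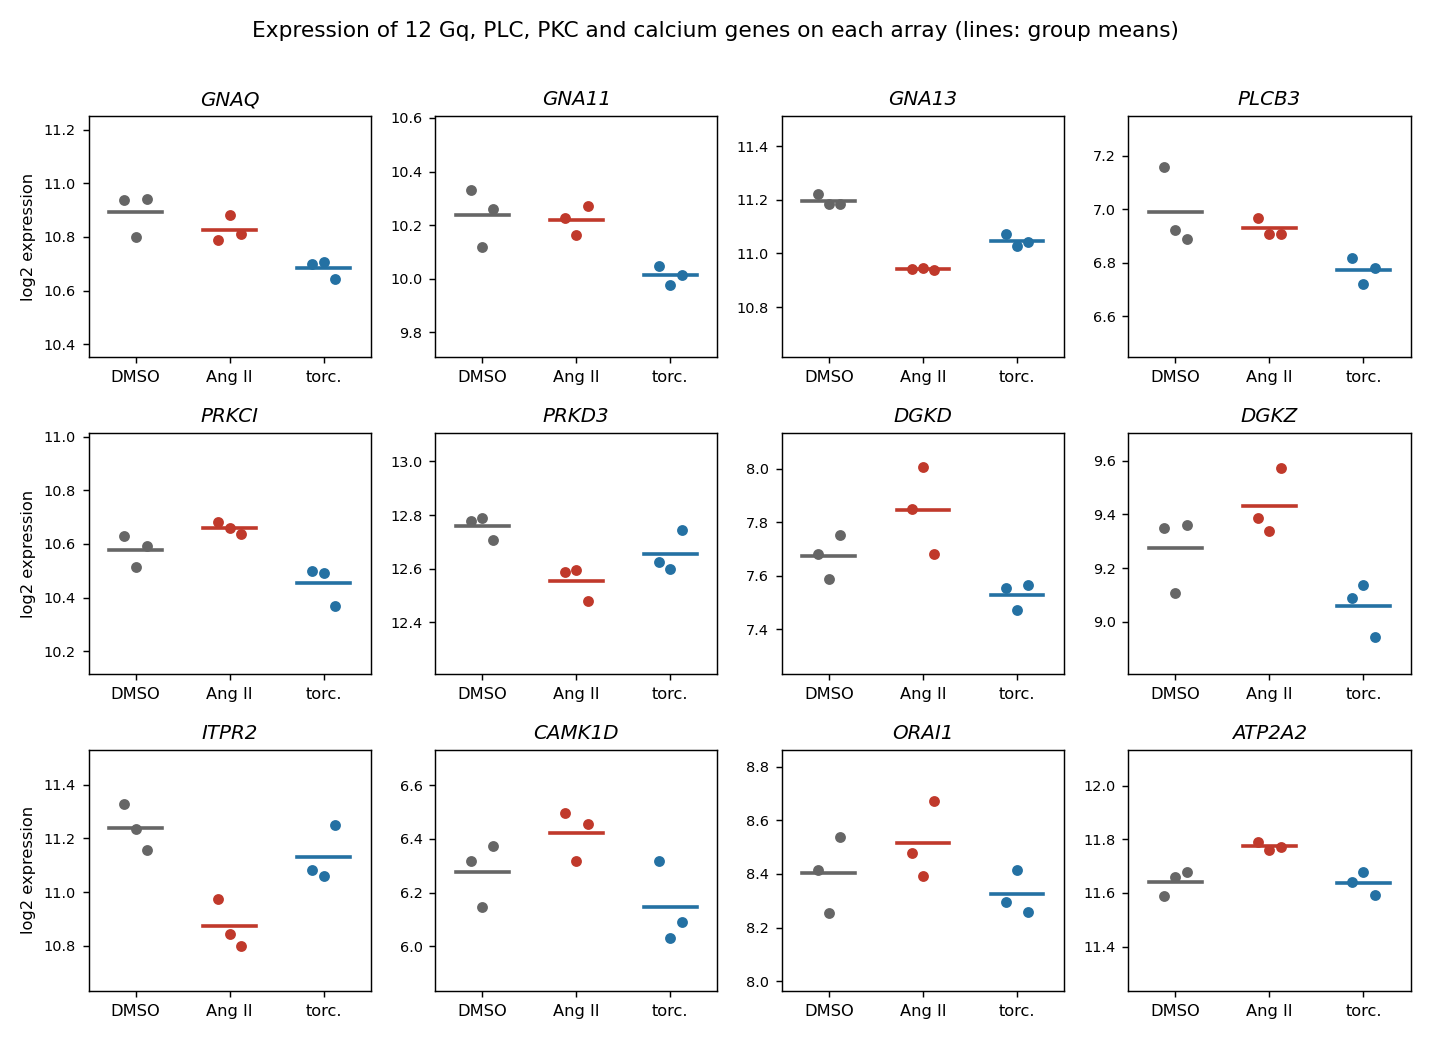
Log2 level of each of the 12 members with values given by array, one panel per gene with its own vertical axis, points for the 3 arrays of each group and a bar for the group mean. GNA13, PRKD3 and ITPR2 sit lowest in the angiotensin II arrays, ATP2A2 sits highest there, and GNAQ sits lowest in the torcetrapib arrays.

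The alpha subunits pass the signal from receptor to enzyme. GNAQ encodes the Gq alpha subunit, which turns on phospholipase C beta. Its log2 level was 10.94, 10.80 and 10.94 in the DMSO arrays, 10.79, 10.88 and 10.81 with angiotensin II and 10.70, 10.71 and 10.64 with torcetrapib. All torcetrapib arrays lay below all DMSO arrays, while those of angiotensin II overlapped with DMSO. Torcetrapib minus DMSO was -0.21 (SE 0.05, adjusted p = 0.0446 in limma), a level 1.16-fold lower. Angiotensin II minus DMSO was -0.07 (SE 0.05, adjusted p = 0.585). The torcetrapib call was lost without any 1 array other than DMSO replicate 2 (adjusted p 0.128 to 0.215). When the fit included the 5′ to 3′ index the difference was -0.13 (adjusted p = 0.883), and over the mean of all GNAQ probe sets it was -0.0016 (adjusted p = 0.993).

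GNA11, the close relative of GNAQ that couples to the same enzymes, read 10.33, 10.12 and 10.26 in DMSO, 10.23, 10.16 and 10.27 with angiotensin II and 10.05, 9.98 and 10.01 with torcetrapib. The torcetrapib arrays were again below every other array. The difference passed against angiotensin II (-0.21, SE 0.06, adjusted p = 0.0254) and missed against DMSO (-0.22, SE 0.06, adjusted p = 0.0673). Its probe set is of the _x_at type, which can bind other transcripts too, and without _x_at and _s_at probe sets torcetrapib minus angiotensin II was -0.10 (adjusted p = 0.451). The call was also lost without angiotensin II replicate 1 or 3 or any torcetrapib array (adjusted p 0.0586 to 0.104), and was -0.03 with the index in the fit (adjusted p = 0.967).

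GNA13 encodes the G13 alpha subunit, which acts on activators of the RhoA GTPase rather than on phospholipase C beta. Its arrays read 11.22, 11.18 and 11.19 in DMSO, 10.94, 10.95 and 10.94 with angiotensin II and 11.07, 11.03 and 11.04 with torcetrapib. The 3 groups did not overlap, with torcetrapib between the others. GNA13 fell by 0.26 with angiotensin II (SE 0.04, adjusted p = 0.000205), a level 1.19-fold lower. Torcetrapib minus DMSO was -0.15 (SE 0.04, adjusted p = 0.0587), and torcetrapib minus angiotensin II was 0.11 (SE 0.04, adjusted p = 0.0712). The fall with angiotensin II held without any 1 array and with the index in the fit; averaged over its probe sets it was -0.37 (adjusted p = 0.202). Over that mean torcetrapib minus DMSO was 0.40 (adjusted p = 0.278) and torcetrapib minus angiotensin II 0.77 (adjusted p = 0.00472). GNA12, its relative, gave 0.02 with angiotensin II and -0.07 with torcetrapib (SE 0.07).

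Phospholipases C make IP3 and diacylglycerol. In limma's test 0 of 7 passed in any comparison, and at an unadjusted p of 0.05 the counts were 0, 1 and 0. Of all genes, 16.5%, 13.3% and 24.8% had an unadjusted p of at most 0.05 in the same comparisons. PLCB3, of the beta class that Gq activates, had the largest difference. It read 7.16, 6.92 and 6.89 in DMSO, 6.97, 6.91 and 6.91 with angiotensin II and 6.82, 6.72 and 6.78 with torcetrapib. Torcetrapib minus DMSO was -0.21 (SE 0.09, adjusted p = 0.302, 95% interval -0.40 to -0.03), with no overlap of arrays. The only PLCB3 probe set is of the _x_at type, which can bind other transcripts too. PLCB1 and PLCB2, also of the beta class, gave -0.02 and 0.14 with angiotensin II. PLCG1, which tyrosine kinases activate, PLCD1, which calcium activates, and PLCE1, which Ras-family GTPases activate, gave 0.01, -0.05 and 0.00 (0.0018) with angiotensin II and -0.08, -0.15 and -0.04 with torcetrapib.

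Protein kinases C are the first targets of diacylglycerol. PRKCI, an atypical form that needs neither diacylglycerol nor calcium, was the single call among 8. It read 10.63, 10.52 and 10.59 in DMSO, 10.68, 10.66 and 10.64 with angiotensin II and 10.499, 10.49 and 10.37 with torcetrapib. The torcetrapib arrays lay below all others and those of angiotensin II above all others. Torcetrapib minus angiotensin II was -0.21 (SE 0.05, adjusted p = 0.0106), a comparison in which 6.68% of all genes were called lower. Against DMSO neither treatment passed (0.08, adjusted p = 0.456, and -0.12, adjusted p = 0.260). The call was lost without angiotensin II replicate 1 (adjusted p = 0.0501), without torcetrapib replicate 3 (0.0608) and with the index in the fit (-0.11, 0.783), and averaged over its probe sets the sign turned (0.03, adjusted p = 0.809). Of its 2 other probe sets, 1 with a mean of 9.43 gave -0.27 (adjusted p = 0.0113 in limma over all probe sets). The other, with a mean of 5.76, gave 0.56 (adjusted p = 0.0332).

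The forms that diacylglycerol activates showed no call, and 7 of 8 protein kinases C had a positive change with angiotensin II, beside 10651 of all 19775 genes. PRKCA, a calcium-dependent form, gave 0.03 (SE 0.09) with angiotensin II and 0.05 with torcetrapib. PRKCD and PRKCE, which need no calcium, gave 0.16 (SE 0.13) and 0.11 (SE 0.10) with angiotensin II and -0.12 and -0.04 with torcetrapib. PRKCH gave 0.33 with angiotensin II (SE 0.13, adjusted p = 0.199) and 0.34 with torcetrapib (adjusted p = 0.280), and its DMSO arrays, at 5.48, 5.19 and 5.80, were the widest apart. PRKCQ gave -0.06 and -0.07. Counted at an unadjusted p of 0.05, 1, 2 and 2 of the 8 protein kinases C were below it, beside 16.5%, 13.3% and 24.8% of all genes.

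Protein kinases D sit below protein kinase C and also bind diacylglycerol. PRKD3 read 12.78, 12.79 and 12.71 in DMSO, 12.59, 12.60 and 12.48 with angiotensin II and 12.63, 12.60 and 12.74 with torcetrapib. The angiotensin II arrays lay below every DMSO array, and one torcetrapib array reached into the DMSO range. PRKD3 fell by 0.20 with angiotensin II (SE 0.04, adjusted p = 0.00578), 1.15-fold lower, and torcetrapib minus DMSO was -0.10 (adjusted p = 0.287). Torcetrapib minus angiotensin II was 0.10 (adjusted p = 0.141), and 0.58 averaged over its probe sets (adjusted p = 0.0045). The call held without any 1 array and with the index; without the intensity trend the adjusted p was 0.127, and without _x_at and _s_at probe sets the change was -0.48 (adjusted p = 0.327). PRKD1 and PRKD2 gave 0.02 and 0.07 with angiotensin II and -0.04 and -0.14 with torcetrapib.

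Diacylglycerol kinases end the diacylglycerol signal by turning it into phosphatidic acid. All 3 had a positive change with angiotensin II that did not pass: DGKA 0.22 (adjusted p = 0.191), DGKD 0.17 (0.357) and DGKZ 0.16 (0.360). The other probe sets of DGKA and DGKZ gave -0.13 and -0.01. Of all genes, 10651 of 19775 had a positive change with angiotensin II. Between the treatments 2 of 3 passed, both lower with torcetrapib, and 6.68% of all genes were called lower. DGKZ read 9.35, 9.11 and 9.36 in DMSO, 9.39, 9.34 and 9.57 with angiotensin II and 9.09, 9.14 and 8.94 with torcetrapib. It was 0.38 lower with torcetrapib than with angiotensin II (-0.375, SE 0.08, adjusted p = 0.00696), or 1.30-fold, and the arrays of these groups did not overlap.

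DGKD read 7.68, 7.59 and 7.75 in DMSO, 7.85, 8.004 and 7.68 with angiotensin II and 7.55, 7.47 and 7.57 with torcetrapib. Torcetrapib minus angiotensin II was -0.32 (SE 0.09, adjusted p = 0.0282), with torcetrapib below every other array. That call was lost without angiotensin II replicate 1 or 2 or any torcetrapib array (adjusted p 0.0658 to 0.113). The DGKZ call held without any 1 array. With the index in the fit DGKD was -0.21 (adjusted p = 0.781) and DGKZ -0.19 (adjusted p = 0.768), and without _x_at and _s_at probe sets DGKZ was -0.16 (adjusted p = 0.260).

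**Figure D2:**
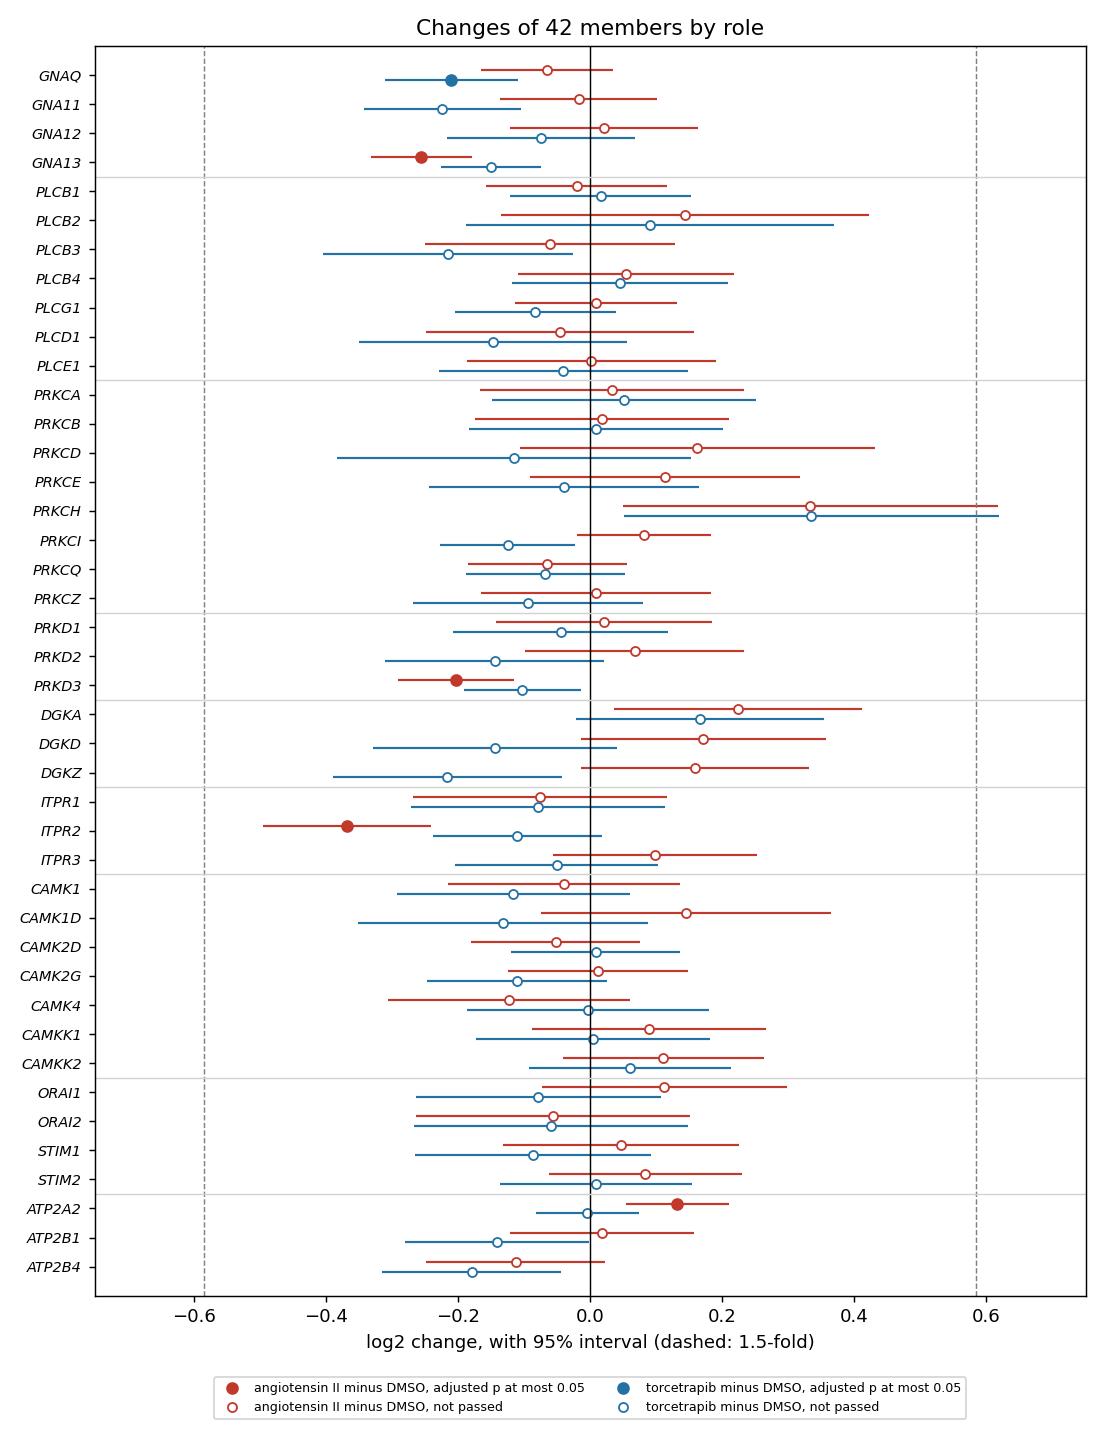
Log2 change of each of the 42 measured members, grouped by role, with 95% intervals, for angiotensin II minus DMSO (red) and torcetrapib minus DMSO (blue). Filled points passed limma's test over all genes (4 and 1 members) and open points did not; dashed lines mark 1.5-fold either way, which no point reaches.

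IP3 receptors are the channels through which IP3 empties the calcium store. ITPR2 read 11.33, 11.23 and 11.16 in DMSO, 10.97, 10.85 and 10.80 with angiotensin II and 11.08, 11.06 and 11.25 with torcetrapib. Every angiotensin II array lay below every other array. ITPR2 fell by 0.37 with angiotensin II (SE 0.06, adjusted p = 0.000878), 1.29-fold lower and the largest fall among the members. Torcetrapib minus DMSO was -0.11 (SE 0.06, adjusted p = 0.461), and torcetrapib was above angiotensin II by 0.26 (SE 0.06, adjusted p = 0.0106). The fall with angiotensin II held without any 1 array and with the index; averaged over its probe sets it was -0.15 (adjusted p = 0.134). The difference between treatments was lost without torcetrapib replicate 3 (0.20, adjusted p = 0.0656) and with the index (0.33, adjusted p = 0.190).

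ITPR1 and ITPR3, the other two IP3 receptors, gave -0.08 (SE 0.09) and 0.10 (SE 0.07) with angiotensin II and -0.08 and -0.05 with torcetrapib. Neither passed. Whether the response of ITPR2 differs from theirs was not tested.

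Calmodulin-dependent kinases read the calcium rise. In limma's test 0 of 7 passed in any comparison. At an unadjusted p of 0.05 the counts were 0, 0 and 1, beside 16.5%, 13.3% and 24.8% of all genes. CAMK1D, of the family that lies below CAMKK1 and CAMKK2, differed most. It read 6.32, 6.15 and 6.37 in DMSO, 6.50, 6.32 and 6.46 with angiotensin II and 6.32, 6.03 and 6.09 with torcetrapib, and torcetrapib minus angiotensin II was -0.28 (SE 0.10, adjusted p = 0.103). No group stood clear of the others, the lowest angiotensin II array being level with the highest torcetrapib array. CAMK2D and CAMK2G, calcium/calmodulin-dependent kinases II, gave -0.05 and 0.01 with angiotensin II (SE 0.06) and 0.01 and -0.11 with torcetrapib. CAMKK2, an upstream kinase, gave 0.11 (SE 0.07) and 0.06.

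STIM proteins sense an emptied store and open ORAI channels in the plasma membrane. In limma's test 0 of 4 passed in any comparison. At an unadjusted p of 0.05 the counts were 0, 0 and 1, beside 16.5%, 13.3% and 24.8% of all genes. ORAI1 read 8.41, 8.26 and 8.54 in DMSO, 8.48, 8.39 and 8.67 with angiotensin II and 8.30, 8.41 and 8.26 with torcetrapib, with overlap between all groups. Torcetrapib minus angiotensin II was -0.19 (SE 0.09, adjusted p = 0.186). ORAI2 gave -0.06 with angiotensin II, STIM1 0.05 and STIM2 0.08, and the 95% interval of each of the 4 genes lay within 1.25-fold in both comparisons with DMSO.

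Calcium pumps return calcium to the store or out of the cell. ATP2A2 encodes SERCA, the pump of the endoplasmic reticulum. It read 11.59, 11.66 and 11.68 in DMSO, 11.79, 11.76 and 11.77 with angiotensin II and 11.64, 11.68 and 11.59 with torcetrapib. The angiotensin II arrays lay above all others, and torcetrapib and DMSO overlapped. ATP2A2 rose by 0.13 with angiotensin II (SE 0.04, adjusted p = 0.0418), 1.10-fold, and was lower with torcetrapib than with angiotensin II (-0.14, SE 0.04, adjusted p = 0.0237). The rise was lost without any 1 of the 6 arrays (adjusted p 0.0513 to 0.157) and held with the index, and the difference between treatments was lost without angiotensin II replicate 1 or torcetrapib replicate 1 or 3 (adjusted p 0.0799 to 0.108) and, averaged over its probe sets, turned to 0.11 (adjusted p = 0.236). ATP2B1 and ATP2B4, pumps of the plasma membrane, gave 0.02 and -0.11 with angiotensin II and -0.14 and -0.18 with torcetrapib, none passing.

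Arrays of 2 groups that do not overlap give a count that needs no model. Angiotensin II and DMSO did not overlap in 8 members, 4 in each direction, where 17.6% of all genes did so (9.26% higher, 8.37% lower). Torcetrapib and DMSO did not overlap in 10 members, 9 of them lower with torcetrapib, where 16.5% of all genes did so (6.04% higher, 10.5% lower). Torcetrapib and angiotensin II did not overlap in 15 members, 12 of them lower with torcetrapib, where 28.6% did so (10.3% higher, 18.4% lower). With torcetrapib 31 of 42 members had a negative change, and of all genes 12045 of 19775 did.

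The measured genes around the pathway were read from the same fit, as lists. Their counts stand beside the shares of all genes called. These were 3.36% higher and 2.76% lower with angiotensin II, and 0.592% and 0.566% with torcetrapib. Between treatments 4.61% were higher and 6.68% lower with torcetrapib. At an unadjusted p of 0.05, 13.3% of all genes passed for torcetrapib against DMSO. Of 32 receptors that couple to Gq, 1 rose and 1 fell with angiotensin II, 0 passed with torcetrapib (2 at an unadjusted p of 0.05) and 2 were higher with torcetrapib than with angiotensin II. AGTR1, the receptor for angiotensin II itself, read 11.92, 12.12 and 11.98 in DMSO, 11.69, 11.68 and 11.69 with angiotensin II and 11.94, 11.93 and 11.93 with torcetrapib. It fell by 0.32 with angiotensin II (SE 0.04, adjusted p = 0.000124), held without any 1 array, and its torcetrapib arrays lay inside the DMSO range. AGTR1 was 0.24 higher with torcetrapib than with angiotensin II (adjusted p = 0.00145), and 0.08 with the index in the fit (adjusted p = 0.749). OXTR, the oxytocin receptor, read 5.30, 4.95 and 5.34 in DMSO and 5.85, 5.45 and 6.44 with angiotensin II, a rise of 0.71 (adjusted p = 0.0351) that was lost without any 1 array other than angiotensin II replicate 2 (adjusted p 0.0628 to 0.125). F2R, a thrombin receptor, was 0.38 higher with torcetrapib than with angiotensin II (adjusted p = 0.00913); the call was lost without torcetrapib replicate 3 (0.32, adjusted p = 0.0553), without _x_at and _s_at probe sets the value was -0.09 (adjusted p = 0.638), averaged over its probe sets 0.15 (0.137) and with the index in the fit 0.28 (0.662).

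Of 21 other isoforms of the member families, 1 rose with angiotensin II, 0 passed with torcetrapib (2 at an unadjusted p of 0.05) and 1 was lower between treatments. DGKG, a further diacylglycerol kinase, rose by 0.43 with angiotensin II (adjusted p = 0.0359), and DGKQ, another, was lower with torcetrapib than with angiotensin II (-0.25, adjusted p = 0.0409). The DGKG call was lost without any 1 array other than DMSO replicate 3 (adjusted p 0.0619 to 0.131), and the DGKQ call without any 1 other than angiotensin II replicate 1 (0.0663 to 0.148). Over the mean of probe sets DGKG was 0.27 (adjusted p = 0.0644) and DGKQ -0.11 (0.315), and with the index DGKQ was -0.11 (0.896).

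Of 26 enzymes that make or break phosphoinositides and inositol phosphates, 2 rose with angiotensin II, 1 rose with torcetrapib, and between treatments 1 was higher and 3 were lower with torcetrapib. ITPKC, a kinase that phosphorylates IP3 and so ends its action on the channel, read 6.34, 5.97 and 6.42 in DMSO, 6.91, 6.87 and 7.01 with angiotensin II and 6.13, 5.91 and 5.95 with torcetrapib. It rose by 0.68 with angiotensin II (adjusted p = 0.00131), 1.61-fold, and was lower with torcetrapib than with angiotensin II by 0.93 (-0.93, adjusted p = 7.7e-05). The rise passed under each of its 16 alternatives, and the difference between treatments with the index in the fit was -0.60 (adjusted p = 0.190). PI4K2A, a phosphatidylinositol kinase, rose by 0.23 (adjusted p = 0.0271), lost without any 1 array other than DMSO replicate 3 (adjusted p 0.0592 to 0.0978) and at 0.10 averaged over its probe sets (adjusted p = 0.611). PIP5K1A, a kinase that makes the substrate of phospholipase C, read 8.99, 9.58 and 8.59 in DMSO and 9.95, 9.94 and 9.90 with torcetrapib, a rise of 0.87 (adjusted p = 0.0231) that was lost without any 1 array other than DMSO replicate 2 (adjusted p 0.0966 to 0.121). With the index in the fit it was 0.51 (adjusted p = 0.756), and averaged over its probe sets 1.41 (adjusted p = 0.0771). Between treatments PITPNA, a phosphatidylinositol transfer protein, was lower with torcetrapib (-0.22, adjusted p = 0.0273), lost without any 1 array other than angiotensin II replicate 1 (adjusted p 0.0632 to 0.123), and was -0.04 averaged over its probe sets (adjusted p = 0.739). PI4K2A was lower too (-0.28, adjusted p = 0.0061), but 0.05 averaged over its probe sets (adjusted p = 0.731), -0.17 without _x_at and _s_at probe sets (0.274) and -0.25 with the index (0.462). PIP5K1A was higher (0.65, adjusted p = 0.0252), lost without any 1 array other than angiotensin II replicate 3 (adjusted p 0.0693 to 0.120), at 0.12 with the index (adjusted p = 0.957) and at 1.52 averaged over its probe sets (0.0078).

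Of 25 other proteins of calcium stores and mitochondrial calcium, 1 rose and 1 fell with angiotensin II, 0 passed with torcetrapib (3 at an unadjusted p of 0.05), and between treatments 2 were higher and 2 lower. SELENOK, a selenoprotein of the endoplasmic reticulum, rose by 0.21 with angiotensin II (adjusted p = 0.000802), and RCN2, a calcium-binding protein there, fell by 0.22 (adjusted p = 0.00259). Both held without any 1 array. HSP90B1, a chaperone of the endoplasmic reticulum, was 0.39 higher with torcetrapib than with angiotensin II (adjusted p = 0.00757), and CALU, a calcium-binding protein, was lower (-0.14, adjusted p = 0.0217). With the index in the fit these were 0.02 and -0.12, and the CALU call was lost without angiotensin II replicate 2 or 3 or torcetrapib replicate 3 (adjusted p 0.0543 to 0.104). Averaged over its probe sets CALU turned to 0.29 (adjusted p = 0.0216), and HSP90B1 was 0.24 (adjusted p = 0.202). RCN2 was higher (0.14, adjusted p = 0.0393) and SELENOK lower (-0.13, adjusted p = 0.0233) with torcetrapib than with angiotensin II, but RCN2 was lost without any 1 array other than angiotensin II replicate 1 (adjusted p 0.0850 to 0.131) and SELENOK without angiotensin II replicate 1 or 2 or torcetrapib replicate 1 or 3 (adjusted p 0.0680 to 0.0951).

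Of 17 substrates, scaffolds and diacylglycerol-binding proteins, 1 fell with angiotensin II, 0 passed with torcetrapib (1 at an unadjusted p of 0.05) and 1 was higher between treatments. That was MARCKS, a membrane-bound substrate of protein kinase C. It read 11.05, 11.14 and 11.03 in DMSO, 10.84, 10.70 and 10.74 with angiotensin II and 11.01, 10.98 and 11.13 with torcetrapib. MARCKS fell by 0.31 with angiotensin II (adjusted p = 0.00111), held without any 1 array, and was -0.18 averaged over its 5 probe sets (adjusted p = 0.161). It was 0.28 higher with torcetrapib than with angiotensin II (adjusted p = 0.00243), 0.20 with the index in the fit (adjusted p = 0.486) and 0.16 averaged over its probe sets (adjusted p = 0.138).

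Of the 10 adrenocortical markers, 4 rose with angiotensin II, 1 rose with torcetrapib and 5 were lower with torcetrapib than with angiotensin II. Of all genes, 3.36%, 0.592% and 6.68% were called in these directions. FDX1, the ferredoxin that passes electrons to steroidogenic enzymes, rose by 0.66 with angiotensin II (adjusted p = 2.6e-06) and by 0.37 with torcetrapib (adjusted p = 0.00717). The torcetrapib rise was lost without torcetrapib replicate 2 (adjusted p = 0.0567) and was 0.18 with the index in the fit (adjusted p = 0.309). STAR, which brings cholesterol into mitochondria, SCARB1, which takes up lipoprotein cholesterol, and MC2R, the ACTH receptor, rose with angiotensin II by 0.20, 0.18 and 0.41. Without the intensity trend the STAR and SCARB1 rises were lost (adjusted p = 0.0891 and 0.142). The MC2R call was lost without DMSO replicate 3 or angiotensin II replicate 2 or 3 (adjusted p 0.0586 to 0.0853). Between treatments FDX1 (-0.29), SCARB1 (-0.29), INHA (-0.37), CYP17A1 (-0.20) and STAR (-0.13) were lower with torcetrapib. The last 3 were each lost without any 1 of 5 of the 6 arrays (adjusted p 0.0655 to 0.171). With the index in the fit FDX1 passed (-0.57, adjusted p = 7.9e-05). The others did not: SCARB1 -0.22 (adjusted p = 0.0591), INHA -0.28 (0.765), CYP17A1 -0.32 (0.210) and STAR -0.20 (0.206). FDX1 was lost without the trend (adjusted p = 0.0586), and CYP17A1 was -0.05 averaged over its probe sets (0.693).

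Most members have more than 1 probe set, which reads another stretch of the transcript. There were 131 for the 42 genes, 36 genes having several. All probe sets of a gene had the same sign in 17 of 36 genes for angiotensin II minus DMSO, in 13 for torcetrapib minus DMSO and in 18 between the treatments. In a fit over all single-symbol probe sets, a check added after the data were seen, the members' 89 other probe sets gave 0 calls for angiotensin II (2.68% of the other probe sets of all genes), 2 higher for torcetrapib (1.38%) and 14 between the treatments (13.2%). Of those 14, 11 were higher with torcetrapib and 3 lower, or 12.4% and 3.37% of the 89. For the other probe sets of all genes these shares were 10.2% and 2.98%. The lower ones belonged to GNA11 (-0.30 and -0.38) and PRKCI (-0.27), with the sign of the brightest probe set. Of the higher ones, those of ITPR2 (0.29 and 0.59), GNA13 and PRKD3 also had the sign of the brightest. Those of GNAQ, PRKCI, CAMKK2, ATP2A2 and ATP2B4 had the opposite sign. The 42 brightest probe sets in the same fit gave 3 calls for angiotensin II (4.64% of the brightest of all genes), 0 for torcetrapib (0.819%) and 6 between treatments (9.88%). Of these 6, 1 was higher and 5 lower, beside 4.03% and 5.86% of the brightest of all genes. With the index in the fit the counts of the other probe sets were 1, 1 and 0. The shares of the other probe sets of all genes were then 2.93%, 0.333% and 0.6%. Without DMSO replicate 2 the torcetrapib count was 13, beside 8.69%, and that of the brightest probe sets was 4, beside 4.43%. For the other probe sets it was 1 without DMSO replicate 1 (0.502%). It was 0 without DMSO replicate 3 (0.342%) or any 1 torcetrapib array (0.263% to 0.296%). Without torcetrapib replicate 3 the counts between treatments were 7 (7.71%) and, for the brightest, 0 (5.41%). The 6 calls of the brightest became 2 without angiotensin II replicate 1 or 3, 3 without angiotensin II replicate 2 or torcetrapib replicate 1, and the 14 of the others became 9 without angiotensin II replicate 1.

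**Figure D3:**
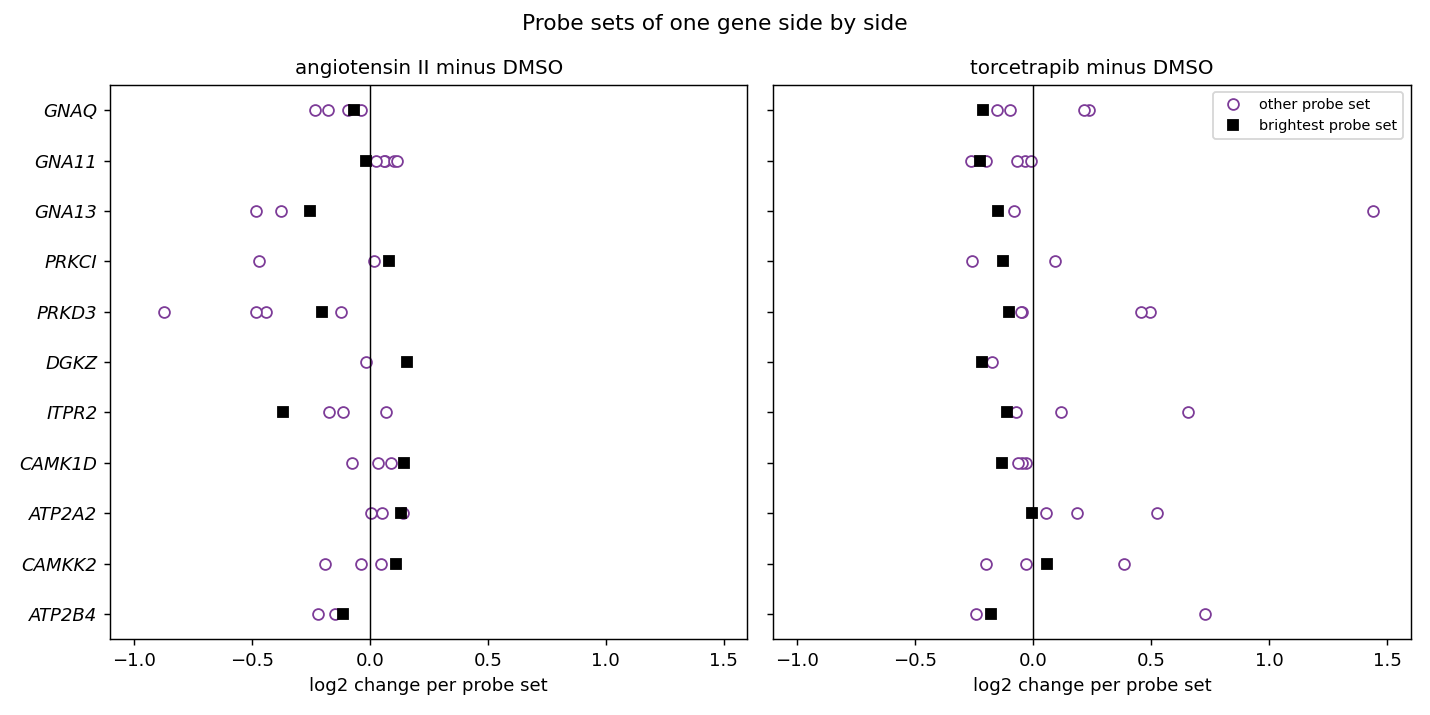
Log2 change of every probe set of 11 members for each comparison with DMSO, with a filled square for the brightest probe set of each gene and open circles for its others. Of the 2 other probe sets of GNA13, 1 lies at 1.44 for torcetrapib and 1 at -0.08, while the brightest lies at -0.15.

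In GNA13 the probe sets disagreed. A second probe set read 4.68, 7.02 and 5.76 in DMSO, 5.41, 5.06 and 5.54 with angiotensin II and 7.16, 7.30 and 7.31 with torcetrapib. Its highest DMSO array is replicate 2, the array whose index lies beside those of torcetrapib. Torcetrapib minus angiotensin II was 1.92 (SE 0.41, adjusted p = 0.00975 in limma), a level 3.79-fold higher, and -0.05 with the index in the fit (SE 0.19). The third GNA13 probe set gave -0.08 for torcetrapib minus DMSO and 0.30 for torcetrapib minus angiotensin II. With angiotensin II all 3 were negative against DMSO, at -0.26, -0.38 and -0.48. The part of RNA quality in these differences was not tested beyond that fit, in which the index and the treatments cannot fully be told apart.

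PRKD3 had 2 other probe sets that were 0.94 higher with torcetrapib than with angiotensin II. With the index in the fit, that with an adjusted p of 0.00455 went to 0.13 (adjusted p = 0.831) and that with an adjusted p of 0.0258 to 1.26 (SE 0.40, adjusted p = 0.291). Another probe set of ATP2B4 was 0.87 higher (adjusted p = 0.0160) and 0.03 with the index. In GNAQ, 2 other probe sets were 0.47 and 0.39 higher with torcetrapib than with angiotensin II (adjusted p = 0.0221 and 0.0135), where the brightest gave -0.14; with the index they were -0.01 and 0.12.

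For torcetrapib against DMSO, an ITPR2 probe set was the 1 call among the 89 with the index in the fit. This probe set read 7.91, 7.59 and 7.61 in DMSO, 7.92, 7.48 and 7.92 with angiotensin II and 8.41, 8.29 and 8.37 with torcetrapib, where each array exceeded all 6 others. Torcetrapib minus DMSO was 0.66 (SE 0.12, adjusted p = 0.0267), 1.58-fold higher, and 0.83 with the index (SE 0.15, adjusted p = 0.0433). The brightest ITPR2 probe set gave -0.11 in the same comparison. In ATP2A2 another probe set was 0.52 higher with torcetrapib than with DMSO (adjusted p = 0.0327) and 0.39 with the index (adjusted p = 0.651). In fits without the index, both calls against DMSO were lost without DMSO replicate 3 or any 1 torcetrapib array. Which stretch of each transcript these probe sets read was not analysed here.

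**Figure D4:**
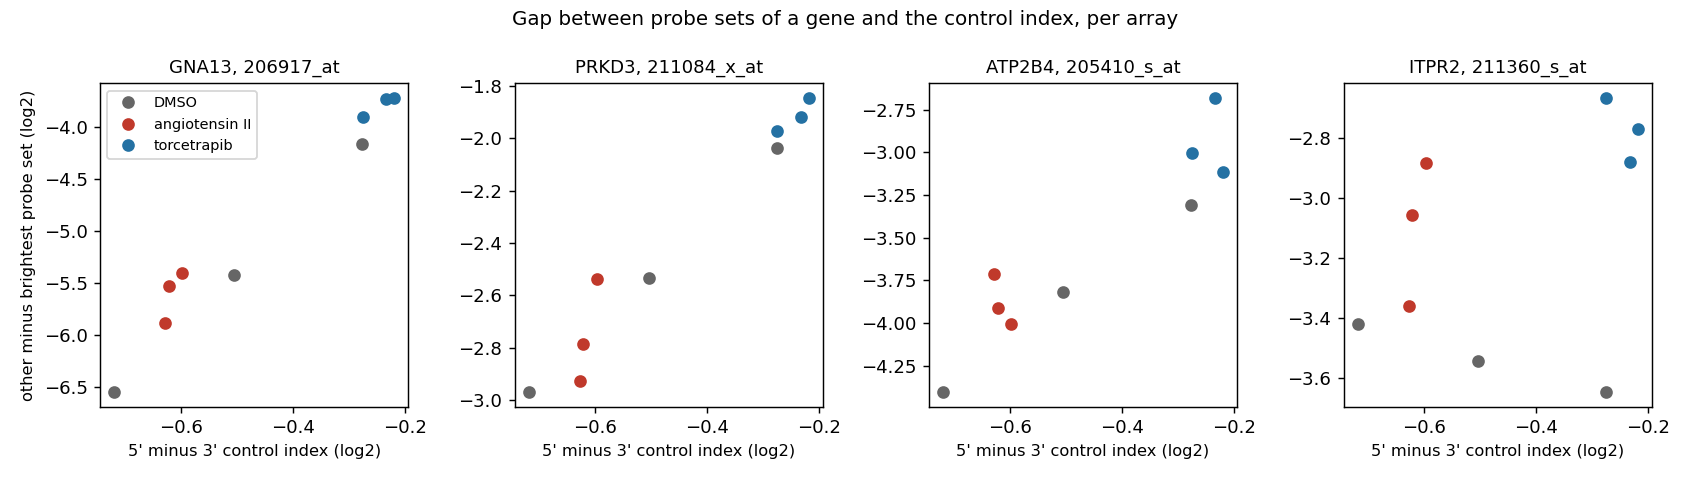
Per array, the log2 value of another probe set minus that of the brightest one of the same gene, against the 5′ to 3′ index of the control probe sets, for 4 members (GNA13, PRKD3, ATP2B4 and ITPR2), with 9 points coloured by group. For GNA13 the gap runs from -6.54 in DMSO replicate 1 to -3.73 in torcetrapib replicates 2 and 3, and DMSO replicate 2, at -4.16, lies beside the torcetrapib arrays.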

How the data were processed

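Total RNA from 9 H295R samples was measured on Affymetrix arrays of 54675 probe sets. The deposited values are log2 values made by the authors with RMA, per the submitters' processing notes. The program behind RMA, its version and the chip definition file were not given in the sources used here. Of the probe sets, 41091 carry 1 gene symbol, 1801 several and 11721 none, and 62 are controls. For each of 19775 genes the probe set with the highest mean over 9 arrays was used. limma 3.58.1 in R 4.3.3 fitted 3 group means to all genes, with eBayes and an intensity trend, 6 residual degrees of freedom, two-sided tests, Benjamini-Hochberg adjustment over all genes and a threshold of 0.05. Intervals are 95% and unadjusted. No counts lie behind the values, and the number of arrays limits their precision. Members with a call, and in a role without one the member with the largest change, are given by array; list genes with a call are named, at most 5 per list and comparison. Members and lists were chosen with earlier results of these data known. The fit was tested on simulated data. At 1.2-fold it recovered 11 of 50 changes for angiotensin II against DMSO and 13 of 50 for torcetrapib against DMSO. At 1.5-fold it recovered 43 and 45 of 50. Alternatives changed the moderation, filter, normalization, probe set, weights, groups fitted, index covariate and arrays included.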

Additional observations from a re-analysis of the deposited data

How the results depend on the processing

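The 4 members called for angiotensin II became 2 without the intensity trend, 1 with the mean of probe sets and 7 with array weights, and were 3 to 4 when 1 array was left out. The 1 member called for torcetrapib became 0 without the trend, with centred arrays, with the mean of probe sets, without _x_at or _s_at probe sets, with only the 2 groups compared or with the index; it became 2 without the dimmest 25% of genes, 3 after a further quantile normalization and 4 with array weights, and was 0 to 5 when 1 array was left out, 5 without DMSO replicate 2. The 6 members called between treatments became 2 without the trend, 13 with array weights and 0 with the index, and were 1 to 5 when 1 array was left out: 1 without torcetrapib replicate 3, 2 without angiotensin II replicate 1 and 3 without torcetrapib replicate 1. With the mean of probe sets 2 calls between treatments turned sign: PRKCI to 0.0273 and ATP2A2 to 0.108. Of the 11 called changes, 175 alternative values gave 117 calls in the same direction, 56 losses and 2 turned signs; of the 25 changes without a call among the same genes, 395 values gave 22 calls. No paired analysis was possible because the serial numbers in the labels are shared by no 2 arrays, so replicate numbers only name arrays. The 3 arrays per group limit the precision: SEs of the members ran from 0.0356 to 0.133. The fit over all probe sets was added after the data were seen.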
